A study of Mus musculus with 16 samples.

Results

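The genes described here are the 6 leukocyte adhesion molecules and selectins Vcam1, Icam1, Icam2, Sele, Selp and Selplg, taken by symbol from a table of 55492 genes measured in mouse left ventricle. The study asked what loss of PKM2, a splice form of the glycolytic enzyme pyruvate kinase, does to the heart before and after myocardial infarction (MI). RNA sequencing covered 16 left ventricles of male C57BL/6 mice aged 8 to 12 weeks, in 6 groups. Each genotype, PKM2fl/fl or PKM2-/-, had 2 unoperated mice (baseline), 3 mice taken 3 days after a sham operation and 3 taken 3 days after permanent ligation of the left anterior descending artery (MI); the sham operation left the artery open. The PKM2fl/fl controls are the floxed line itself, not wild-type mice. The PKM2-/- mice lack the PKM2-specific exon in every tissue, since the floxed line was crossed with a CMV-Cre line and the Cre was then bred out, so leukocytes, platelets and vessels carry the deletion as well as heart muscle. Each library came from its own mouse.

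Leukocytes leave the blood in steps. Selectins on activated endothelium catch passing cells and let them roll, chemokines switch on leukocyte integrins, and the integrins then bind immunoglobulin-family molecules on the vessel wall so that the cell stops and crosses. E-selectin (Sele) is made by activated endothelium, P-selectin (Selp) is stored ready-made in endothelial and platelet granules, and their shared ligand PSGL-1 (Selplg) sits on leukocytes. VCAM-1 (Vcam1) is bound by the integrin alpha4beta1, ICAM-1 (Icam1) by LFA-1 and Mac-1, and ICAM-2 (Icam2) by LFA-1; VCAM-1 and ICAM-1 are inducible by inflammatory cytokines, whereas ICAM-2 is carried by resting endothelium. Of these genes, Sele, Selp, Vcam1 and Icam1 are widely used as signs of vessel activation in the injured heart.

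In the mouse assembly GRCm38 (mm10), Sele and Selp lie near each other on the forward strand of chromosome 1, at 164039614 to 164058487 and 164115264 to 164150026. Vcam1 is on chromosome 3 (116110020 to 116129688, reverse strand), Icam1 on chromosome 9 (21015940 to 21028814, forward), Icam2 on chromosome 11 (106377656 to 106388139, reverse) and Selplg on chromosome 5 (113817798 to 113832528, reverse). Start-site windows from RefSeq on GRCm38.p6, each covering 250 bases before to 50 bases after a transcript start, were matched for 3 of the 6 genes. All 3 are shown, and no window was available for Vcam1, Icam2 or Selplg. Sele and Selp had the largest changes of the members after infarction in PKM2fl/fl hearts. Icam1 had the smallest adjusted p of the members (limma) after sham surgery in PKM2-/- hearts. The windows are all on the forward strand, at chr1:164047984-164048283 for Sele, chr1:164115014-164115313 for Selp and chr9:21015690-21015989 for Icam1. Those of Selp and Icam1 contain the first base of the gene span given above. The Sele window lies inside the Sele span, so its transcript start is not the first base of that span. Capitals mark matches to the AP-1 letters TGANTCA and to a loose kB-type pattern, GGNNNTTCC, on either strand.
Sele: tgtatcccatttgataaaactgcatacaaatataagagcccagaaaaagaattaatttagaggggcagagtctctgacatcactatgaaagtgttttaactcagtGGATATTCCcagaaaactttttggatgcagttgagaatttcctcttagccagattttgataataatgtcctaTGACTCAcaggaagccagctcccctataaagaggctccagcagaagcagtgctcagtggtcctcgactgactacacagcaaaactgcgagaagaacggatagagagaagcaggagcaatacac
Selp: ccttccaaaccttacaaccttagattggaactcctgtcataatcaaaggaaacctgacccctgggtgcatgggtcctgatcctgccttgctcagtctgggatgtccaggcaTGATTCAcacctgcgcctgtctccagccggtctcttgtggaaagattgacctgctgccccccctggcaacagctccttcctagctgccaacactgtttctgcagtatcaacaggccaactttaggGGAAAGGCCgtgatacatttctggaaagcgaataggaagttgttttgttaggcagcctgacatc
Icam1: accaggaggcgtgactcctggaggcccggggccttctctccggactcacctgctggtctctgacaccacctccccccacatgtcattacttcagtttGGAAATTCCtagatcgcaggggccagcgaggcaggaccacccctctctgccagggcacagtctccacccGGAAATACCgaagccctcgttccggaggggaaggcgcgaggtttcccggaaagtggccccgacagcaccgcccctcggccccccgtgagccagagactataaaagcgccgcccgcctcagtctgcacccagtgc
The Sele window held an AP-1 match at -73 to -67 and a kB-type match at -145 to -137, counted from the start site, and the letters TATAAA at -49 to -44. In the Selp window an AP-1 match lay at -139 to -133 and a reverse-strand kB-type match at -14 to -6. Icam1 held kB-type matches at -153 to -145, on both strands, and at -84 to -76 on the reverse strand, with TATAAA at 13 to 18. Such letters are common: TGANTCA occurred in 7.81% of 32851 promoter windows of the same length, GGNNNTTCC in 18.5% and TATAAA in 13.6%. The stricter NF-kB consensus, found in 4.51% of windows, had no match in these 3. The loose pattern was chosen after the sequences had been read, a match is a run of letters and not a shown binding site, and the patterns do not overlap one another in these windows.

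Values below are normalized counts, that is reads per gene divided by a size factor for each library, which leaves them comparable between libraries of one gene. The libraries held 20623769 to 71855101 reads in the table. All 6 members passed the filter on low values (a mean of at least 10), with between 4 and 457 reads per library behind a Sele value and between 10 and 1314 behind a Selp value, against 142 to 993 for Icam1 and 242 to 1992 for Vcam1. Cardiomyocyte markers were high in all libraries, and their summed level was 812941 or more in the baseline and sham groups and 409867 or less after MI. The share of reads at loci related to ribosomal RNA ran from 15.8% to 46.3% and differed between groups: 17.3% to 22.1% in the PKM2fl/fl baseline pair and 39.9% to 44.0% in the PKM2-/- baseline pair. Total Pkm, which counts both splice forms and so cannot check the deletion, was 7779 to 12076 in PKM2fl/fl and 10120 to 16113 in PKM2-/- libraries. In whole ventricle, more cells of a type and more RNA per cell cannot be told apart.

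After MI the selectin arm rose in both genotypes while the immunoglobulin-family members changed by less than 2-fold. Sele, Selp and Selplg were called higher, which here means that limma on log2(normalized count + 1) gave a change of 2-fold or more and an adjusted p below 0.05, in PKM2fl/fl and in PKM2-/- hearts alike. That is 3 of 6 members in each genotype, where 12.4% of the 20576 genes tested were called higher in PKM2fl/fl and 14.5% in PKM2-/- hearts. The median log2 change over the members was 1.18 in PKM2fl/fl and 1.19 in PKM2-/- hearts, beside -0.0025 and 0.010 over all genes tested.

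**Figure D1:**
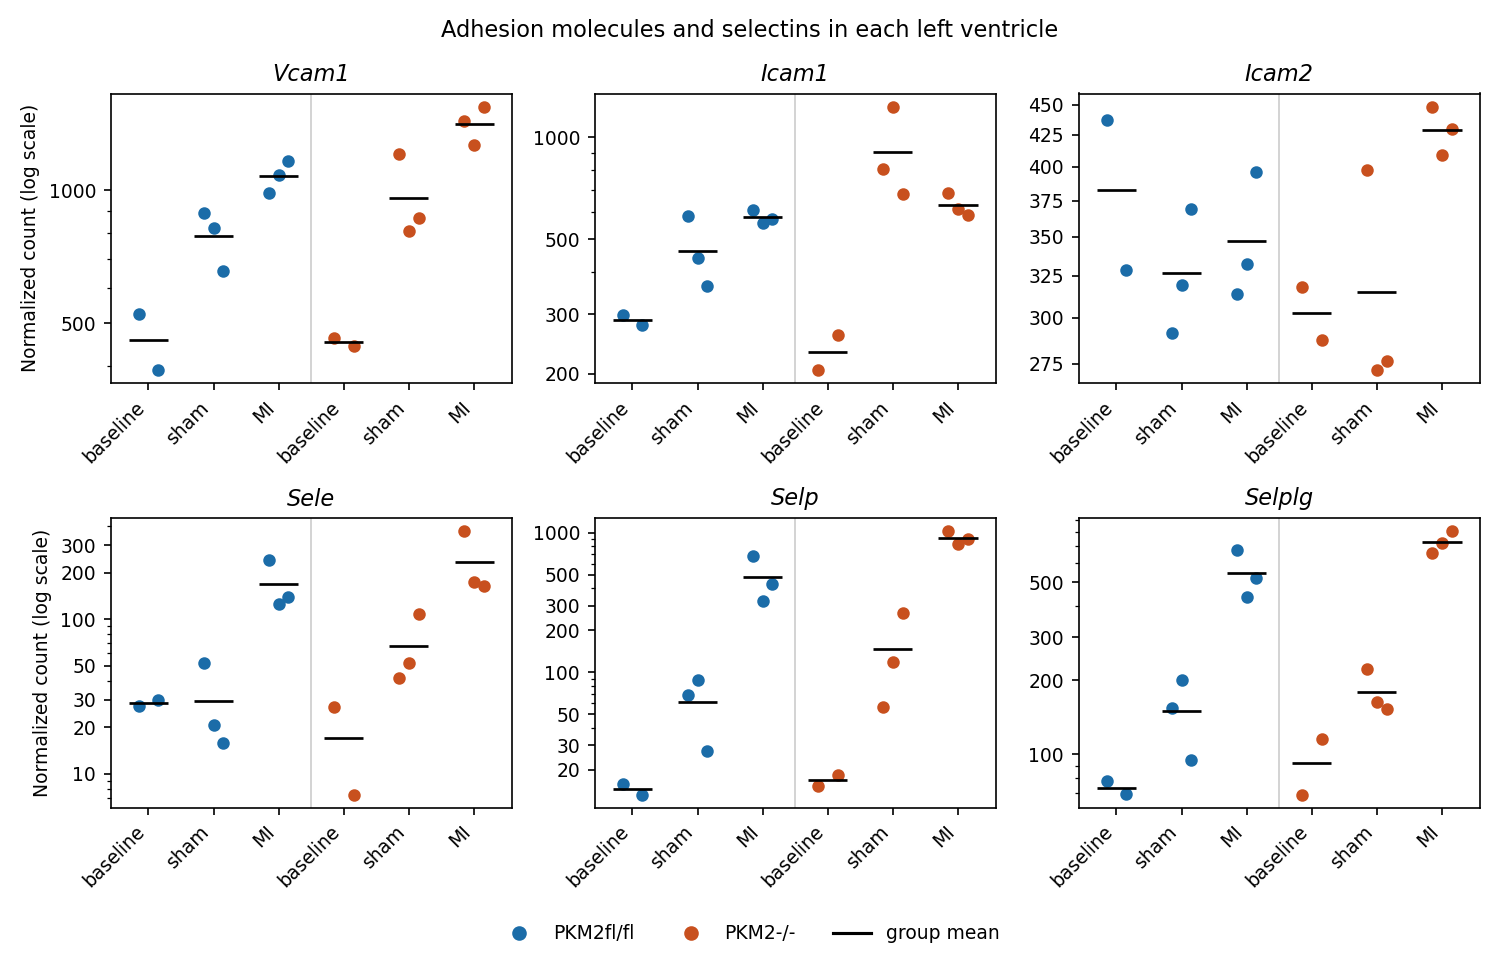
Normalized count (log scale) of each gene in each left ventricle, by genotype and treatment; 1 point is 1 mouse and the bar is the group mean. Selp spans 13.3 in a PKM2fl/fl baseline heart to 1028 in a PKM2-/- MI heart, whereas Icam2 stays between 272 and 448 throughout.

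P-selectin had the widest range of the members. At baseline Selp read 15.7 and 13.3 in PKM2fl/fl and 15.2 and 18.3 in PKM2-/- ventricles. The sham values were 68.7, 87.3 and 27.5 in PKM2fl/fl and 56.3, 118 and 265 in PKM2-/- ventricles, and the MI values 683, 326 and 431 against 1028, 835 and 902. All MI hearts stood above all sham hearts of either genotype, and every PKM2-/- MI heart above every PKM2fl/fl MI heart. Within a genotype, all MI hearts lay above all sham hearts for 30% of all genes in PKM2fl/fl and 31.7% in PKM2-/- hearts. Between genotypes, all PKM2-/- MI hearts lay above all PKM2fl/fl MI hearts for 10.7% of all genes. The rise from sham to MI was 8.20-fold in PKM2fl/fl (log2 3.04 ± 0.47 SE, adjusted p 8.13e-05 by limma) and 7.54-fold in PKM2-/- hearts (2.92 ± 0.47, adjusted p 8.18e-05). The group means ran in the order PKM2-/- MI (921 ± 98.2 SD, n = 3), PKM2fl/fl MI (480 ± 184, n = 3), PKM2-/- sham (146 ± 108, n = 3), PKM2fl/fl sham (61.1 ± 30.6, n = 3), PKM2-/- baseline (16.7 ± 2.24, n = 2) and PKM2fl/fl baseline (14.5 ± 1.72, n = 2). Within this order the sham groups overlapped each other, as did the baseline pairs.

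E-selectin also rose after MI, from a sham level in PKM2fl/fl hearts that overlapped the baseline one. Its baseline values were 27.5 and 29.9 in PKM2fl/fl and 26.8 and 7.33 in PKM2-/- ventricles, the last resting on 4 reads. After sham surgery Sele stood at 51.7, 20.5 and 15.7 in PKM2fl/fl and at 41.8, 52.2 and 108 in PKM2-/- hearts, and after MI at 241, 125 and 138 against 370, 173 and 163. No MI heart overlapped a sham heart of its genotype, a separation upward that 30% of all genes had in PKM2fl/fl and 31.7% in PKM2-/- hearts. Sele rose 6.08-fold with MI in PKM2fl/fl (log2 2.60 ± 0.51 SE, limma adjusted p 6.31e-04) and 3.50-fold in PKM2-/- hearts (1.81 ± 0.51, adjusted p 0.00731). The 2 MI groups overlapped, with means of 236 ± 117 in PKM2-/- and 168 ± 63.5 in PKM2fl/fl (SD, n = 3 each). Below them came PKM2-/- sham at 67.3 ± 35.5, then PKM2fl/fl sham at 29.3 ± 19.5, PKM2fl/fl baseline at 28.7 ± 1.68 and PKM2-/- baseline at 17.1 ± 13.8, and each of these overlapped the next except the baseline pairs. Both PKM2-/- baseline hearts lay below both PKM2fl/fl baseline hearts for 17.2% of all genes.

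PSGL-1, the ligand that both selectins bind, had the smallest error of the 3 members called after MI. Selplg read 77.7 and 69.0 at baseline in PKM2fl/fl and 68.8 and 115 in PKM2-/- hearts. It read 155, 201 and 94.6 after sham and 677, 435 and 520 after MI in PKM2fl/fl hearts, with 222, 163 and 153 and then 657, 722 and 808 in PKM2-/- hearts. Sham and MI values were separate in both genotypes, as they were (MI above) for 30% and 31.7% of all genes in PKM2fl/fl and PKM2-/- hearts. The genotypes overlapped under every treatment. The increase was 3.71-fold in PKM2fl/fl (log2 1.89 ± 0.26 SE, limma adjusted p 2.83e-05) and 4.09-fold in PKM2-/- hearts (2.03 ± 0.26, adjusted p 9.89e-06). Means were 729 ± 75.5 and 544 ± 123 after MI, 179 ± 37.1 and 150 ± 53.5 after sham, and 92.1 ± 33.0 and 73.4 ± 6.16 at baseline, with PKM2-/- first in each pair (SD).

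VCAM-1 differed between treatments in small steps, of which only that from baseline to sham in PKM2-/- hearts was called. Vcam1 values were 524 and 391 at baseline, 889, 820 and 656 after sham and 989, 1086 and 1166 after MI in PKM2fl/fl hearts. PKM2-/- hearts gave 463 and 443, then 1207, 811 and 867, then 1438, 1265 and 1549. The 3 treatments did not overlap within either genotype, and after MI every PKM2-/- heart exceeded every PKM2fl/fl heart. Of all genes, 30% in PKM2fl/fl and 31.7% in PKM2-/- hearts had all MI hearts above all sham hearts. All sham hearts lay above all baseline hearts for 17.4% and 18.4%. All PKM2-/- MI hearts lay above all PKM2fl/fl MI hearts for 10.7% of all genes. From sham to MI the log2 change was 0.46 ± 0.16 SE in PKM2fl/fl (adjusted p 0.0234 by limma) and 0.58 ± 0.16 in PKM2-/- hearts (adjusted p 0.00567), both significant but under the 2-fold bound. Scaling to total counts instead gave 1.09 in PKM2-/- hearts, which passed it. Group means were 1418 ± 143 and 1080 ± 88.5 after MI, 962 ± 214 and 789 ± 120 after sham, and 453 ± 13.6 and 457 ± 93.4 at baseline (PKM2-/- first, SD).

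ICAM-1 was the one member whose highest group was a sham group. Icam1 stood at 297 and 278 at baseline, 583, 440 and 363 after sham and 609, 558 and 572 after MI in PKM2fl/fl hearts. In PKM2-/- hearts it stood at 205 and 260, then at 804, 1232 and 680 after sham and at 686, 614 and 590 after MI. Every PKM2-/- sham heart was above every PKM2fl/fl sham heart, as held for 8.27% of all genes, whereas the MI groups overlapped. The change from sham to MI was 0.35 ± 0.19 SE on the log2 scale in PKM2fl/fl (limma adjusted p 0.147) and -0.48 ± 0.19 in PKM2-/- hearts (adjusted p 0.0472, under 2-fold), and the latter turned to 0.034 with scaling to total counts. By mean the order was PKM2-/- sham (905 ± 290 SD), PKM2-/- MI (630 ± 49.8), PKM2fl/fl MI (580 ± 26.3), PKM2fl/fl sham (462 ± 112), PKM2fl/fl baseline (288 ± 13.8) and PKM2-/- baseline (233 ± 39.0). Each operated group overlapped its neighbour in this order.

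ICAM-2, the constitutive member, stayed within a narrow band. Icam2 read 437 and 328 at baseline, 291, 319 and 369 after sham and 314, 332 and 396 after MI in PKM2fl/fl hearts, against 318 and 288, 397, 272 and 276, and 448, 409 and 430 in PKM2-/- hearts. Only the PKM2-/- MI hearts stood clear of the other operated groups, and a PKM2fl/fl baseline heart (437) lay within their range. For 31.7% of all genes all PKM2-/- MI hearts lay above all PKM2-/- sham hearts, and for 10.7% above all PKM2fl/fl MI hearts. The log2 change of Icam2 from sham to MI was 0.47 ± 0.16 SE in PKM2-/- hearts (limma adjusted p 0.0207, under 2-fold). In PKM2fl/fl hearts it was 0.089 ± 0.16 with a 95% interval of -0.25 to 0.43 (adjusted p 0.670). Means ran from 303 ± 21.5 in PKM2-/- baseline to 429 ± 19.7 in PKM2-/- MI hearts (SD), with PKM2-/- sham at 315 ± 71.2, PKM2fl/fl sham at 326 ± 39.1, PKM2fl/fl MI at 347 ± 43.1 and PKM2fl/fl baseline at 383 ± 76.9.

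Per kilobase of canonical transcript, a scale on which levels of different genes can be set side by side, the selectins were the scarcest members before injury. In PKM2fl/fl baseline hearts Selp had 4.21 ± 0.50 normalized counts per kilobase and Sele 7.64 ± 0.45 (SD, n = 2). Selplg followed with 39.2 ± 3.29, Icam2 with 59.3 ± 11.9, Icam1 with 91.5 ± 4.39 and Vcam1 with 131 ± 26.9. After MI the same genotype gave 140 ± 53.4 for Selp and 291 ± 65.6 for Selplg (n = 3), which placed both above Icam2 at 53.8 ± 6.69, while Sele at 44.8 ± 16.9 stayed beside it. With the length of all annotated exons taken instead, Selp and Sele remained lowest at baseline, but Vcam1 (50.9), Icam2 (51.6) and Icam1 (57.9) changed places. The order of those 3 therefore depends on which length is used, and the place of Icam2 rests on a canonical transcript of 6452 bases.

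The pattern of MI responses was then set beside cell-type markers. Of 14 endothelial markers none was called in either genotype (limma; median log2 change 0.04 in each). Under the 2-fold bound, 5 passed the adjusted p of 0.05 in PKM2fl/fl (3 higher and 2 lower, from -0.63 for Flt1 to 0.76 for Cdh5) and 7 in PKM2-/- hearts (3 higher and 4 lower, from -0.92 to 0.75 for the same genes). With no fold threshold, 50.1% of all genes passed in PKM2fl/fl and 56.8% in PKM2-/- hearts. The summed level of the endothelial markers after MI was 41010 to 46311 in PKM2fl/fl and 42813 to 47949 in PKM2-/- hearts, against 40522 to 46266 and 47391 to 49117 after sham. None of them was at 0 in any library. Over all genes tested, limma called 12.4% higher in PKM2fl/fl and 14.5% in PKM2-/- hearts. All 8 pan-leukocyte markers were called higher in both genotypes, with medians of 2.13 and 2.51, and their sums were 13981 to 18725 after MI and 2687 to 4943 after sham in PKM2fl/fl hearts. In PKM2-/- hearts those sums were 19552 to 20797 and 3922 to 4390. Of the platelet markers that could be tested, 2 of 5 were called higher in PKM2fl/fl hearts (Ppbp and Pf4), and in PKM2-/- hearts 3 higher (with Gp1bb) and 1 lower (Gp1ba). The platelet sums were 297 to 458 after sham and 1180 to 1732 after MI in PKM2fl/fl, and 436 to 516 and 2076 to 3329 in PKM2-/- hearts, with up to 2 platelet markers at 0 in a library; Gp5, Gp9 and Treml1 did not pass the filter.

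**Figure D2:**
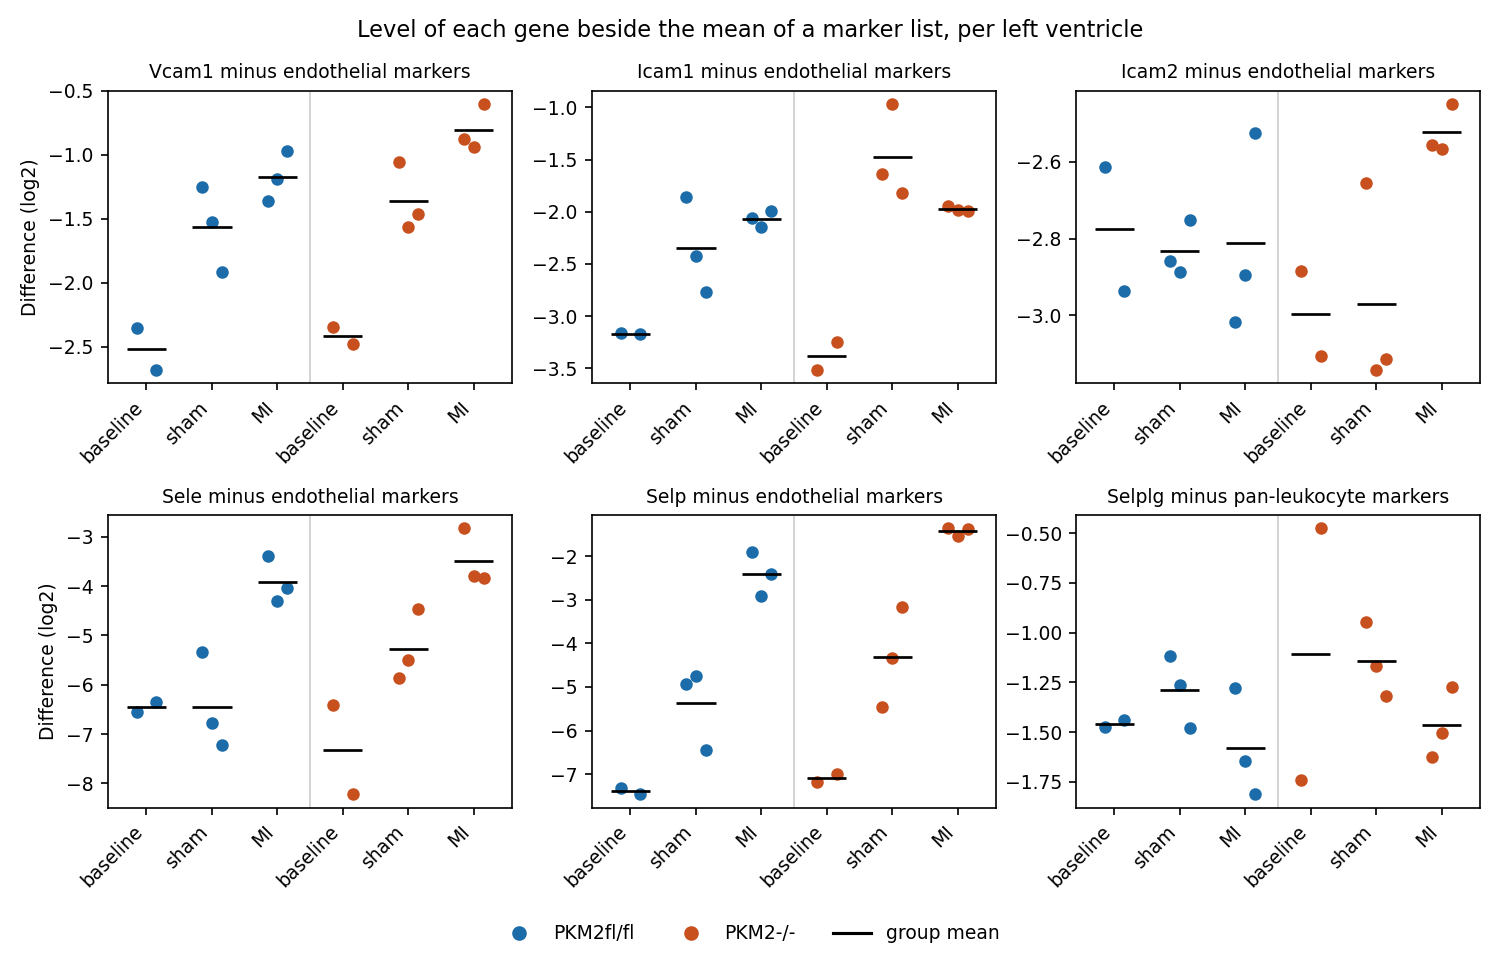
Log2 level of each gene minus the mean log2 level of a marker list, per left ventricle: endothelial markers for Vcam1, Icam1, Icam2, Sele and Selp, pan-leukocyte markers for Selplg; bars are group means. Sele and Selp rise from sham to MI beside the endothelial markers in both genotypes, and Selplg overlaps between sham and MI beside the pan-leukocyte markers.

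Against the endothelial mean of each library, Selp was higher after MI than after sham by log2 2.97 in PKM2fl/fl and 2.90 in PKM2-/- hearts. For Sele the same measure rose by 2.54 and 1.79. Both genes were separate in all comparisons, with an exact permutation p of 0.1 (two-sided), the smallest that 3 hearts against 3 allow. Vcam1 differed by 0.39 in PKM2fl/fl (exact permutation p 0.2) and 0.56 in PKM2-/- hearts (0.1), Icam1 by 0.28 (0.4) and -0.50 (0.1), and Icam2 by 0.020 (1) and 0.45 (0.1). Selplg, set beside the pan-leukocyte mean, was lower after MI by -0.29 in PKM2fl/fl and -0.32 in PKM2-/- hearts with overlapping groups (exact permutation p 0.2 each).

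Other marker lists were added after these values had been seen. Beside the platelet markers Selp still stood higher after MI, by log2 2.00 in PKM2fl/fl (exact permutation p 0.1) and 1.47 in PKM2-/- hearts (0.2). Set beside the macrophage and monocyte markers, Selplg changed from sham to MI by log2 -0.11 in PKM2fl/fl and -0.12 in PKM2-/- hearts (exact permutation p 0.7 and 0.6). Set beside the neutrophil markers, Selplg changed by 1.23 and 0.74 (exact permutation p 0.1 each). Beside the fibroblast and mural markers Vcam1 was lower after MI (log2 -0.99 and -0.69, exact permutation p 0.1 each). Of these markers 4 of 8 were called higher in PKM2fl/fl hearts, and 3 higher and 1 lower in PKM2-/- hearts. The share of all genes called higher was 12.4% and 14.5%. The part of each cell type in the member values was not tested.

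**Figure D3:**
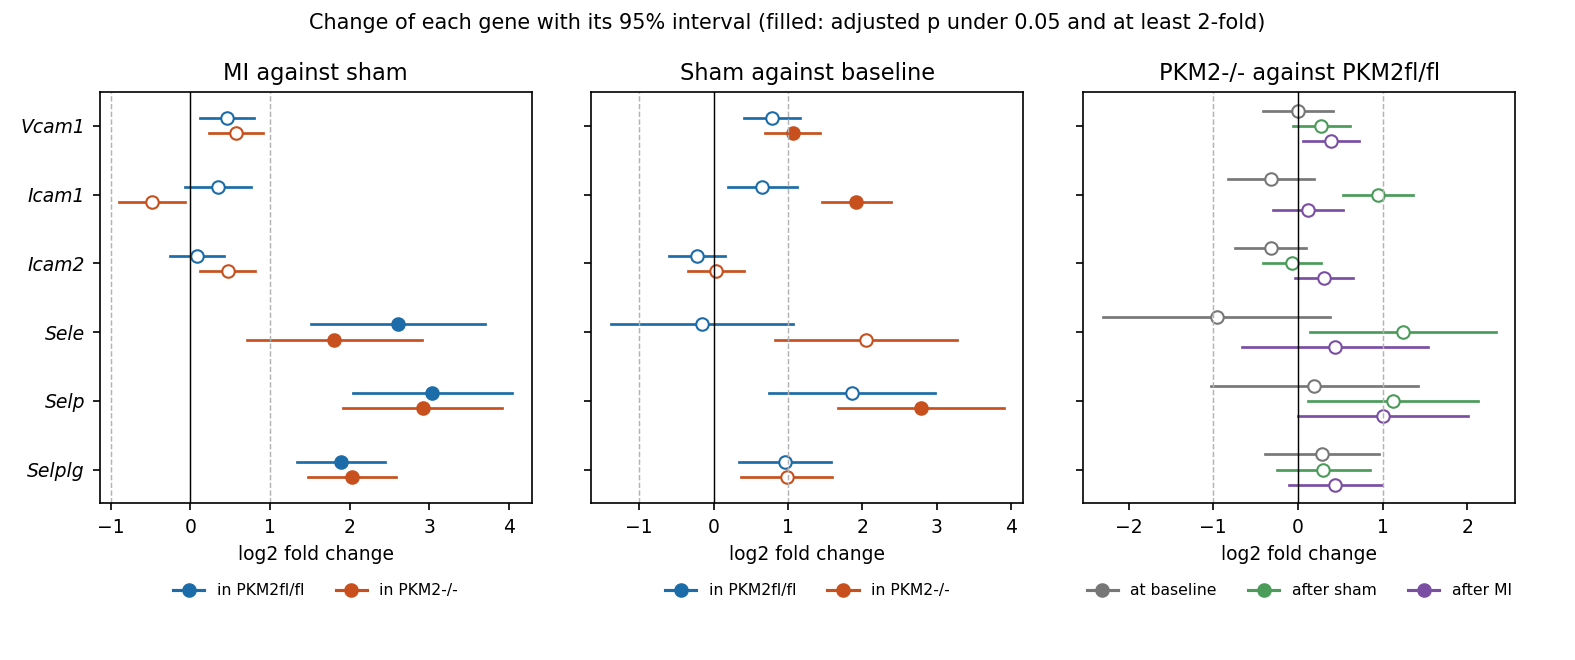
Log2 fold change of each gene with its 95% interval from limma, for MI against sham, sham against baseline and PKM2-/- against PKM2fl/fl; filled points passed an adjusted p of 0.05 and a 2-fold change, and dashed lines mark 2-fold. Sele, Selp and Selplg are filled after MI in both genotypes, Vcam1, Icam1 and Selp after sham surgery in PKM2-/- hearts, and no genotype point is filled.

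The sham hearts were also compared with the unoperated ones. By limma with all libraries, members were called in PKM2-/- hearts only. In PKM2-/- hearts 3 of 6 members were called higher by limma, Icam1, Vcam1 and Selp, where 2.06% of all genes were. Icam1 rose 3.78-fold (log2 1.92 ± 0.22 SE, adjusted p 4.19e-04), Selp 6.90-fold (2.79 ± 0.52, adjusted p 0.00766) and Vcam1 2.09-fold (1.06 ± 0.18, adjusted p 0.00392). The inducible pair and P-selectin stood higher 3 days after an operation without ligation. Sele changed by 2.05 ± 0.58 and Selplg by 0.98 ± 0.29, with adjusted p of 0.0532 and 0.0641. Sele passed with DESeq2 (1.92, adjusted p 0.0264), with total counts as the scale (2.23, 0.00234) and without PKM2-/- baseline replicate 1 (2.92, adjusted p 0.0332 by limma), but gave 1.18 (adjusted p 0.446) without PKM2-/- baseline replicate 2. With either library of that pair left out Selp missed the threshold (2.66 with adjusted p 0.0607, and 2.92 with 0.0514), and without PKM2-/- sham replicate 1 Vcam1 fell under 2-fold (0.89, adjusted p 0.0140). All 6 neutrophil markers tested, 4 of 8 pan-leukocyte, 2 of 8 macrophage and 2 of 8 fibroblast and mural markers were called higher in the same comparison, and no endothelial marker was. Their part in the member values was not tested.

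In PKM2fl/fl hearts no member was called after sham surgery by limma or edgeR, where 0.16% of all genes were called higher by limma. With each tool 4 of 6 had an unadjusted p under 0.05, as 1813 of 20576 genes did with limma. DESeq2 called 1 member, Selplg, and 1.21% of all genes. Selp changed by log2 1.86 ± 0.52 SE (adjusted p 0.182 by limma), Selplg by 0.96 ± 0.29 (0.228), Vcam1 by 0.79 ± 0.18 (0.0884) and Icam1 by 0.66 ± 0.22 (0.292). In all 4 of these genes the sham and baseline hearts were separate, as they were (sham above) for 17.4% of all genes. The result turned on 1 library: without PKM2fl/fl sham replicate 3, Selp (2.35, adjusted p 0.0343) and Selplg (1.26, adjusted p 0.0315) were called. That heart had the lowest Vcam1, Icam1, Sele, Selp and Selplg values of its group, and its summed neutrophil markers were 231 where the other two had 1360 and 1381. The difference between genotypes in the sham response, a comparison added after these results were seen, was 1.26 for Icam1 (95% interval 0.61 to 1.92, unadjusted p 9.27e-04, adjusted p 0.421 by limma) and 2.20 for Sele (0.47 to 3.93, adjusted p 0.668). Without PKM2-/- baseline replicate 1 the Sele value was 3.07, and without replicate 2 it was 1.33. No member was called there (0% of all genes with limma), so a difference between genotypes in the response to sham surgery was not established.

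The genotypes were compared within each treatment, the question being whether hearts without PKM2 differ in these genes. No member was called by limma, edgeR or DESeq2 at baseline, after sham or after MI. The calls over all genes by limma were 0.00972% at baseline, 0.00486% after sham and 0.413% after MI. These shares rest on few genes and move with single libraries: the 85 genes called after MI became 632 without PKM2fl/fl MI replicate 3, whose summed cardiomyocyte markers were 179512 where the other two hearts of its group had 390552 and 409867, and 11 without PKM2-/- MI replicate 3. Over left-out libraries the count ran from 0 to 40 at baseline and from 0 to 49 after sham, and no member was called with them at baseline or after MI. At an unadjusted p under 0.05 limma had 0 members at baseline, 3 after sham (Icam1, Sele and Selp) and 2 after MI (Vcam1 and Selp). Of all 20576 genes tested it had 748, 2047 and 3492 in the same 3 comparisons.

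After sham Icam1 was the clearest, 1.93-fold higher in PKM2-/- hearts (log2 0.95, 95% interval 0.53 to 1.36, unadjusted p 1.99e-04, adjusted p 0.0984 by limma). The 3 PKM2-/- values lay above the 3 PKM2fl/fl values, which held for 8.27% of all genes, and the exact permutation p was 0.1. Without PKM2-/- sham replicate 3 the difference was 1.13 and was called (adjusted p 0.0305). Leaving out any other library kept the adjusted p above 0.05. Sele and Selp were 1.24 and 1.12 higher on the log2 scale, with intervals of 0.14 to 2.33 and 0.12 to 2.12 and adjusted p of 0.436 and 0.437, and their sham groups overlapped. Vcam1 (0.28, -0.061 to 0.61), Selplg (0.30, -0.25 to 0.85) and Icam2 (-0.067, -0.41 to 0.27) had intervals that include 0, and so leave a difference of either sign possible.

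After MI the PKM2-/- hearts had 2.00-fold the Selp of PKM2fl/fl hearts (log2 1.00, 95% interval 0.0031 to 2.00, adjusted p 0.293 by limma). Vcam1 differed by 0.39 (0.054 to 0.73, adjusted p 0.224) and Icam2 by 0.31 (-0.029 to 0.65, adjusted p 0.340). In these 3 genes all PKM2-/- MI hearts lay above all PKM2fl/fl MI hearts, a separation that 10.7% of all genes showed in this direction, with an exact permutation p of 0.1 each. None reached significance after adjustment over all genes. Sele (0.44, -0.66 to 1.54), Selplg (0.44, -0.11 to 0.99) and Icam1 (0.12, -0.30 to 0.53) overlapped between genotypes. Summed neutrophil markers were 1333 to 2348 in PKM2fl/fl and 3785 to 4917 in PKM2-/- MI hearts, with none of the 6 tested called and up to 2 markers at 0 in a library (Ly6g and Ngp did not pass the filter). The platelet and pan-leukocyte sums given above were likewise separate. Sums of the endothelial, macrophage and monocyte, lymphocyte, fibroblast and mural, and cardiomyocyte markers overlapped between genotypes after MI. The part of these cell types in the Selp and Vcam1 values was not tested.

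At baseline, with 2 hearts a side, the intervals were wide. The largest difference was in Sele, lower in PKM2-/- hearts (log2 -0.96, 95% interval -2.30 to 0.38); it was -1.83 without PKM2-/- baseline replicate 1 and -0.092 without replicate 2 of that pair. The difference for Vcam1 was 0.00089 (-0.41 to 0.41). All 6 had an adjusted p of 1 by limma.

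The MI response was also compared between genotypes as an interaction. No member was called by limma, edgeR or DESeq2, and limma called 0% of all genes (226 genes without PKM2fl/fl MI replicate 3, no member among them). At an unadjusted p under 0.05 each tool had 1 member (Icam1), where limma had 1703 of 20576 genes. Icam1 moved by log2 -0.83 relative to PKM2fl/fl hearts (95% interval -1.42 to -0.24, unadjusted p 0.00861, adjusted p 0.500 by limma). Since this contrast and the sham contrast between genotypes share the sham hearts, the Icam1 values in both come in part from the same 6 libraries. The interval for Selp was -1.53 to 1.29, for Sele -2.35 to 0.75, for Selplg -0.64 to 0.92, for Vcam1 -0.36 to 0.59 and for Icam2 -0.10 to 0.86, all around 0.

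**Figure D4:**
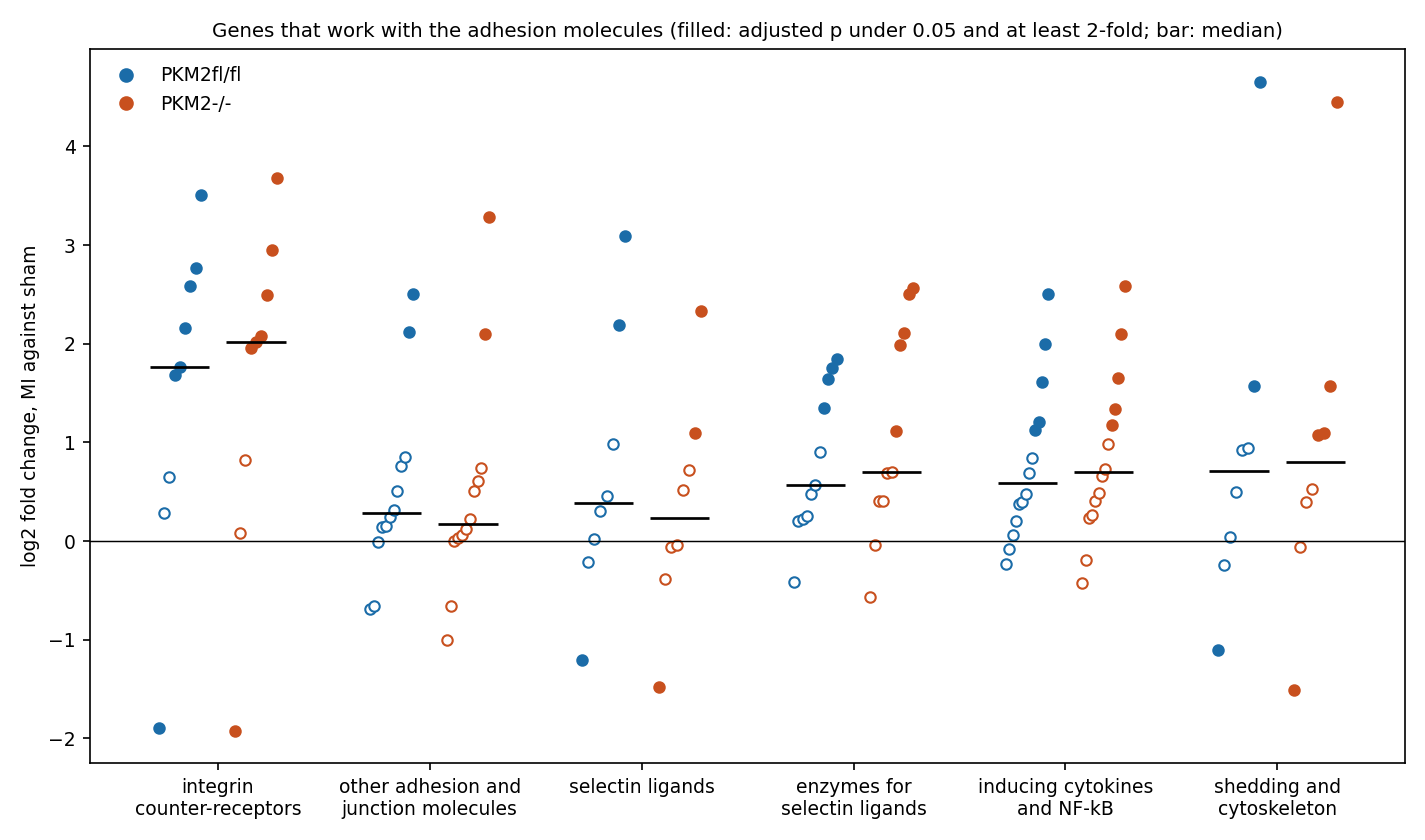
Log2 fold change of MI against sham for the genes in 6 lists of adhesion partners, in PKM2fl/fl and PKM2-/- hearts; filled points passed an adjusted p of 0.05 and a 2-fold change, and the bar is the median of the list. Integrin counter-receptors have the highest median, 1.77 in PKM2fl/fl and 2.02 in PKM2-/- hearts.

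The genes that work with the members were followed through the same comparison. Among the integrins that bind the ICAMs and VCAM-1, 6 of 9 were called higher by limma and 1 lower after MI in each genotype. Of the 20576 genes tested, 12.4% were called higher in PKM2fl/fl and 14.5% in PKM2-/- hearts. Called lower were 2279 and 2949 genes. Itgb2, the shared beta chain of LFA-1 and Mac-1, rose by log2 2.58 ± 0.26 SE in PKM2fl/fl and 2.50 ± 0.26 in PKM2-/- hearts (adjusted p 2.20e-06 and 1.85e-06). Itgax, which encodes CD11c, rose by 3.51 and 3.68, Itga4, the alpha chain of the VCAM-1 receptor, by 1.69 and 2.02, and Itgb7, a beta chain that pairs with it, by 2.16 and 2.08. Itgal (1.77 and 1.96) and Itgam (2.77 and 2.95), the alpha chains of LFA-1 and Mac-1, were the others called higher. The integrin that fell was Itgad (-1.90 and -1.92), whose mean went from 20697 after sham to 6113 after MI in PKM2fl/fl hearts. In the same comparison the cardiomyocyte markers had medians of -1.84 and -2.09 and 7 of 8 and 8 of 8 called lower, and Itgad stood far above Itgb2, whose sham mean was 317; the part of cardiomyocyte RNA in Itgad was not tested.

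Among selectin ligands other than PSGL-1, Cd24a, a mucin-like ligand of P-selectin, was called higher in both genotypes, by log2 2.19 ± 0.25 SE in PKM2fl/fl and 2.33 ± 0.25 in PKM2-/- hearts (limma adjusted p 6.82e-06 and 2.42e-06). Cd34, the sialomucin, changed by 0.46 and 0.52, under 2-fold. In PKM2-/- hearts Spn, which encodes CD43, was also called higher (1.09), and Podxl2, or endoglycan, was called lower in both genotypes (-1.21 in PKM2fl/fl and -1.48 in PKM2-/- hearts). Cd44 was called in PKM2fl/fl hearts (3.09, adjusted p 0.00725 by limma) and gave -0.064 in PKM2-/- hearts, and its mean was 3222 in PKM2fl/fl and 64937 in PKM2-/- baseline hearts, the pair with the larger share of ribosomal RNA reads; the part of those reads in Cd44 was not tested. Over all genes tested, limma called 12.4% higher in PKM2fl/fl and 14.5% in PKM2-/- hearts. Enzymes that build the selectin-binding glycans gave 4 of 11 called higher in PKM2fl/fl and 5 of 11 in PKM2-/- hearts, none lower. They included Gcnt1, the core 2 branching enzyme (1.65 and 2.11), the sulfotransferases Chst2 (1.85 and 2.50) and Chst1 (1.75 and 1.99), the fucosyltransferase Fut4 (1.35 and 2.56) and, in PKM2-/- hearts, the GDP-fucose transporter Slc35c1 (1.11, against 0.91 in PKM2fl/fl hearts). Fut7 and Chst4 did not pass the filter.

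Of 14 cytokines, receptors and NF-kB components that can induce the adhesion molecules, 5 were called higher in each genotype and none lower. The share of all genes called higher was 12.4% in PKM2fl/fl and 14.5% in PKM2-/- hearts. The TNF receptor Tnfrsf1b rose by log2 1.62 and 1.65 and the IL-1 receptor Il1r1 by 1.20 and 1.34, as did Tnf (2.51 and 2.58), Il1b (2.00 and 2.10) and the NF-kB inhibitor Tnfaip3 (1.12 and 1.18), while Tnfrsf1a (0.84 and 0.99) and Nfkb1 (0.40 and 0.26) passed the limma threshold but stayed under 2-fold. Of 12 other endothelial adhesion and junction molecules, 2 were called higher in each genotype, near the share over all genes. These were Mcam (2.12 and 2.10) and Alcam (2.51 and 3.28), immunoglobulin-family molecules, whereas Cdh5, the cadherin of endothelial junctions, changed by 0.76 and 0.75 and Aoc3, which encodes VAP-1, by 0.85 and 0.50. Of 8 genes for shedding and cytoskeletal anchoring, 2 were called higher and 1 lower in PKM2fl/fl hearts and 4 higher and 1 lower in PKM2-/- hearts. Adam8, a protease of activated leukocytes, rose by 4.66 and 4.45 and moesin (Msn) by 1.58 in each, the sheddase Adam10 and Arhgef26, a guanine nucleotide exchange factor, were called in PKM2-/- hearts (1.09 and 1.07), and Filip1, which encodes a filamin-binding protein, fell in both (-1.10 and -1.51). No gene of the 6 lists was called between genotypes after sham or after MI by limma. Beyond the naming rule, Itgal, Itgam, Itgad, Spn, Podxl2, Fut4, Tnf, Il1b, Tnfaip3 and Arhgef26 were named after their values were seen, so that each count has its genes.

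Across the 16 libraries the members did not form a single pattern. Selp and Selplg had a Pearson r of 0.950 on the log2 scale, Selp and Sele 0.911 and Vcam1 and Selplg 0.894, while Icam1 and Icam2 had -0.0062. These values are descriptions, since the libraries share treatments. The genes most like Selp over the 16 libraries were Ifitm2 (r 0.986), Gm45717 (0.982) and Sbno2 (0.979), and those most like Sele were Sbno2 (0.943), Myc (0.942) and Has1 (0.941), so that Sbno2 was named for both selectins. Selplg was closest to Steap1 (0.988), Cd300lf, a myeloid receptor (0.987), and Timp1, a metalloproteinase inhibitor (0.987). Vcam1 was closest to Gm39556 (0.960), AC142112.1 (0.960) and the TNF-family cytokine gene Tnfsf14 (0.955). Icam1 went with Zbtb21 (0.936), Ell2 (0.935) and Maff (0.932), and Icam2 less tightly with Gm20163 (0.869), Fbxw9 (0.804) and Exo5 (0.799).

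Each member overlaps a gene on the opposite strand in the GENCODE M39 annotation, counted over whole gene spans. The library kit does not mark strand, so reads from a stretch that both genes share cannot be told apart. How much exon sequence the pairs share was not measured. Levels of the partners in the table were 2.65 to 226 for Gm16548 (opposite Selp), 62.3 to 246 for Gm43109 (opposite Vcam1), 36.1 to 201 for Gm47079 (opposite Icam1) and 33.2 to 202 for Prr29 (opposite Icam2). The Selp partner was 128, 88.9 and 112 in PKM2fl/fl MI hearts and 226, 186 and 216 in PKM2-/- MI hearts. The Icam1 partner was 115, 79.0 and 68.6 in PKM2fl/fl sham hearts and 143, 201 and 159 in PKM2-/- sham hearts. It was 36.1 and 44.0 in PKM2-/- baseline hearts. Like Icam1, it was thus higher in every PKM2-/- sham heart than in any PKM2fl/fl sham heart. The part of shared reads in the Selp and Icam1 values was not tested.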

How the data were processed

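RNA from 16 left ventricles was depleted of ribosomal RNA and sequenced with a kit that does not mark strand. The authors used PRINSEQ for trimming, HISAT2 for alignment to mm10, featureCounts for gene counts and DESeq2 for normalization (versions not given in the sources used here). The deposited table holds 1 signal per gene and library, the read count divided by a DESeq2 size factor, and 100% of values returned whole reads within 0.1. Its other columns, the authors' log2 fold changes, score (the Wald statistic), p-value and adjusted p-value for the baseline groups, were not used.

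The signal was tested as log2(value + 1) with limma 3.58.1 (trend, R 4.3.3) over 6 group means; the 20576 genes averaging 10 or more entered, with Benjamini-Hochberg adjustment over all of them. Recovered reads were tested with edgeR 4.0.16 and DESeq2 1.42.0 as alternatives, beside other scalings, pseudocounts, filters, a replicate block and leaving out each library. The limma, edgeR and DESeq2 fits were tested on simulated data, and the other steps were not. Single values had exact permutation tests, two-sided. Group means and fitted values carry no counting interval, and the depth per library sets the reads behind each value.

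The members and the lists of partner and marker genes were chosen with earlier results of these data known. All members were named. Of each partner list, the up to 4 genes with the smallest p in MI against sham of PKM2fl/fl hearts were named, with any gene called between genotypes, and, for each member, the 3 genes with the highest Pearson r. Replicate numbers pair nothing, since each library is its own mouse; the correlation of deviations between same-numbered libraries ran from -0.20 to 0.13 over 36 pairs. Some genes of these lists are not reported here.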

Additional observations from a re-analysis of the deposited data

How the results depend on the processing

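The 3 calls after MI in each genotype (Sele, Selp and Selplg) held with every scaling, pseudocount, filter and tool tried and without any 1 library. With no fold threshold 6 members passed in PKM2-/- hearts, as did 56.8% of all genes tested, and Icam1 among them was lower after MI (-0.48). Members called after sham against baseline in PKM2fl/fl hearts numbered 1 with total counts as the scale (Selp), 1 with DESeq2 (Selplg) and 0 to 2 as libraries were left out. Between genotypes after sham the range over left-out libraries was 0 to 1. The replicate block, which pairs nothing here, left the member counts as they were except for sham against baseline in PKM2-/- hearts, where it gave 4 (Sele added, 2.11 with adjusted p 0.0402 by limma).

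Scaling to total counts moved the median of all genes to -0.588 at baseline, -0.325 after sham and 0.360 after MI between genotypes, to -0.177 and 0.516 for MI in PKM2fl/fl and PKM2-/- hearts, to 0.227 for sham against baseline in PKM2-/- hearts, and to 0.675 and 0.259 for the genotype differences in the MI and sham responses. It also moved the share of calls that were higher after MI from 52.8% to 41.6% in PKM2fl/fl hearts and from 50.2% to 78.2% in PKM2-/- hearts. Signs that changed with it were those of Icam2 after MI in PKM2fl/fl (-0.087), Icam1 after MI in PKM2-/- (0.034), Vcam1 (-0.59), Selp (-0.36) and Selplg (-0.30) between genotypes at baseline, Vcam1 (-0.047) and Selplg (-0.020) after sham, and Selp in the genotype difference of the MI response (0.57, and 0.10 with the ribosomal loci left out of the total). The baseline Vcam1 difference was also -0.0023 with TMM factors, -0.12 with totals without ribosomal loci, -0.015 with edgeR and -0.012 with DESeq2. Sele after sham against baseline in PKM2fl/fl was 0.030 with edgeR and 0.037 with DESeq2, and Selplg in the genotype difference of the sham response -0.027 and -0.045. None of these was called, and the cause was not tested.

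Over left-out libraries, signs changed for Icam2 after MI in PKM2fl/fl (-0.0090 to 0.18; beside endothelial markers -0.12 to 0.12), Vcam1 (-0.21 to 0.21) and Selplg (-0.089 to 0.65) at baseline, Icam2 after sham between genotypes (-0.25 to 0.028), Selp (-0.67 to 0.44) and Selplg (-0.10 to 0.44) in the genotype difference of the MI response, Sele after sham in PKM2fl/fl (-0.65 to 0.18), Icam2 after sham in PKM2-/- (-0.14 to 0.13) and Selplg in the genotype difference of the sham response (-0.35 to 0.39). Where 1 baseline library remained, it was assumed to vary like the other groups. DESeq2 called more genes between genotypes than limma (112 against 1 after sham, 292 against 85 after MI, 16 against 2 at baseline, 34 against 0 for the MI response and 21 against 0 for the sham response), and none was a member. With 4 reads behind the lowest Sele value and 2 hearts per baseline group, baseline differences smaller than the intervals given were not detectable.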
